A study of Mus musculus with 10 samples.

Results

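The genes of MHC class I antigen presentation were followed in mouse lung squamous cell carcinoma. The set holds 10 genes: the heavy chains H2-K1 and H2-D1, the light chain B2m, the peptide transporter genes Tap1 and Tap2, the loading factor Tapbp, the immunoproteasome subunits Psmb8, Psmb9 and Psmb10, and the transcriptional regulator Nlrc5. Members were chosen by name, not by their values, and each was represented by its probe with the highest mean over the 10 arrays. Of the 10 genes, 9 had a probe among the 19096 genes named on the array, and all 9 were tested. No probe was paired with H2-D1, which is not analysed here.

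Total RNA came from 2 groups of 13-month-old B6.129 mice without further treatment. The 5 WT samples were whole lungs of Lkb1f/f mice, which carry the floxed Lkb1 alleles without Cre. The 5 SCC samples were lung squamous cell carcinomas of CCSPiCreLkb1f/f mice, in which Cre is driven by the CCSP promoter of airway club cells, so that both groups share the floxed alleles. Each sample was hybridised to 1 single-colour Agilent array, and WT lung and SCC therefore differ in tissue make-up as well as in Lkb1. In these bulk samples, fewer cells of a type and less RNA per cell cannot be told apart. Nothing in the labels ties the replicate numbers to pairs of mice, and the p-values measure the spread between these samples.

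MHC class I molecules show fragments of proteins made inside a cell to CD8 T cells. Peptides are cut by the proteasome, carried into the endoplasmic reticulum by the Tap1-Tap2 transporter, fitted into the heavy chain and beta-2 microglobulin with the help of tapasin (Tapbp), calreticulin and further chaperones, and taken to the surface. Interferon gamma raises most of these genes through factors that include Irf1, exchanges the standard catalytic subunits of the proteasome for Psmb8, Psmb9 and Psmb10, and induces Nlrc5, which acts on class I promoters.

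The promoters of the heavy and light chains are shown because the genes they drive both fell in SCC, and H2-D1, which has no probe, is shown beside them for its sequence. Each line gives the 250 bases before the start of the gene in RefSeq (GRCm38.p6), read 5' to 3' on the strand of the gene. Capitals mark an interferon response core (AANNGAAA) and an NF-kappaB motif (GGGNNTTCC, or the same with a further T), sought on both strands.
H2-K1 (chr17:34000348-34000597, minus strand): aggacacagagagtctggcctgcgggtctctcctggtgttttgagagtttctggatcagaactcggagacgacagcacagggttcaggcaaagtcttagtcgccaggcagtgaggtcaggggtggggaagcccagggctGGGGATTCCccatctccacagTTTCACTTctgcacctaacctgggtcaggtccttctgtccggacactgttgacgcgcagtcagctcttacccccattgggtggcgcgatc
H2-D1 (chr17:35262844-35263093, plus strand): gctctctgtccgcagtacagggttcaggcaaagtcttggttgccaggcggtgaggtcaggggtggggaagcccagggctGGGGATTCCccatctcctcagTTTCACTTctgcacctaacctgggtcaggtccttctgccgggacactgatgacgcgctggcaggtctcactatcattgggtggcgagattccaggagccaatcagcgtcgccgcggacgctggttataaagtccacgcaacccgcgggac
B2m (chr2:122147437-122147686, plus strand): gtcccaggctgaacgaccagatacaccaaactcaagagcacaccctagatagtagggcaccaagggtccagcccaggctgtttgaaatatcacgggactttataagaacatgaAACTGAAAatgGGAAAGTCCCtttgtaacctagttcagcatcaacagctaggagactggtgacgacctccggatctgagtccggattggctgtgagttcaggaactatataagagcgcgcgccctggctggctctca
Each of the 3 windows held 1 interferon response core and 1 NF-kappaB motif, and these did not overlap. The core was found in 21.3% and the NF-kappaB motif in 5.99% of the 32851 promoter windows of that length. The H2-K1 and H2-D1 windows shared an unbroken run of 47 bases. Neither motif was found in the windows of Tap1, Tapbp, Psmb8, Psmb9 or Psmb10, which says only that these letters are not there, and Tap2 and Nlrc5 have no entry in the table. A gamma-activated site (TTCNNNGAA), found in 7.02% of all windows, was present once in the Psmb8 window and in none of the other 7 searched. The motifs were chosen after the windows had been seen.

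Levels below are log2 of the processed array signal after quantile normalization, and differences are SCC minus WT on that scale. Across the array, 30374 probes were tested with limma, and an adjusted p (Benjamini-Hochberg over those probes) below 0.05 counted as past the test. The tumours carried the squamous programme: all 7 tested squamous epithelium markers were higher in SCC, with a mean log2 level of 3.63 to 4.34 on WT arrays and 10.28 to 14.41 on SCC arrays. SCC replicate 2 stood apart at the lower end of that range. Its values over the tested probes without a missing value also correlated with the WT arrays at 0.940 to 0.946, against at most 0.905 for the other 4 tumours. SCC replicate 5 had 90.2% of its probes well above background, against 71.0% to 74.3% on the other 9 arrays.

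Of the 9 members measured, 5 fell in SCC and none rose. The 5 were H2-K1, B2m, Psmb8, Psmb9 and Psmb10. Over all tested probes, 26.6% fell and 22.4% rose by the same rule, 49.0% in all. The difference was negative for all 9 members, with a median of -0.54 against -0.09 over all tested probes. In each of the 5 genes that fell, every SCC array lay below every WT array, as was the case for 21.0% of all tested probes (37.4% were separate in either direction, 16.3% with SCC higher). The count was 5 without SCC replicate 2, without WT replicate 5, and with SCC replicates 2 and 5 both left out.

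**Figure D1:**
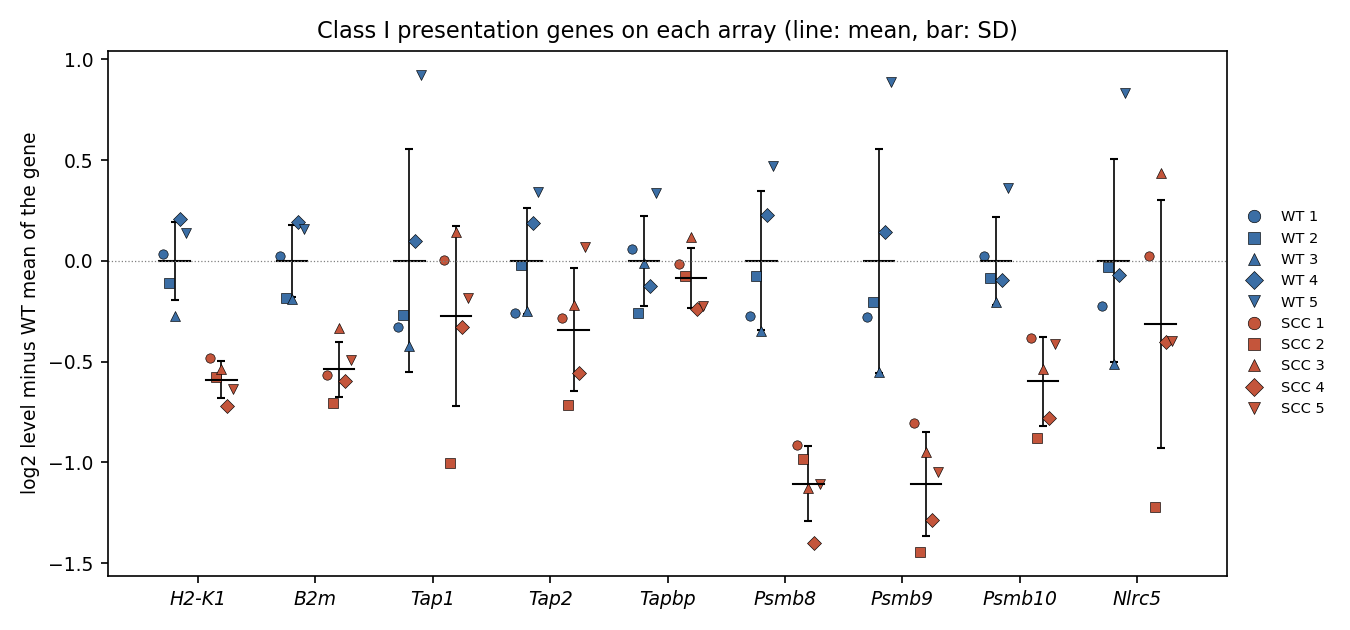
Log2 level of the 9 measured class I presentation genes on each array, as the distance from the gene's WT mean (vertical axis, log2 units). Points are arrays with the replicate number as the symbol, lines are group means and bars are SD (n = 5 per group). All SCC arrays lie below all WT arrays for H2-K1, B2m, Psmb8, Psmb9 and Psmb10, and WT replicate 5 is the highest WT array for 7 of the 9 genes.

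The classical heavy chain H2-K1 carries the peptide at the cell surface. The WT arrays read 17.58, 17.44, 17.27, 17.75 and 17.68 for replicates 1 to 5, and the SCC arrays read 17.06, 16.97, 17.01, 16.82 and 16.91. The groups did not overlap, and the SCC arrays were closer to each other (SD 0.092) than the WT arrays were (SD 0.19). H2-K1 fell by 0.59 (SE 0.11), or 1.50-fold, with an adjusted p of 0.0016 in limma. The pair of dimmer H2-K1 probes gave smaller differences of -0.26 and -0.27 that did not pass (adjusted p 0.129 and 0.192 in limma), so the fall rests on the brightest probe. Heavy chain genes are close copies of each other, and how far each probe also binds the related genes was not tested.

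The light chain B2m, which every classical heavy chain needs to reach the surface, moved by much the same amount. The WT arrays read 16.52, 16.32, 16.31, 16.69 and 16.65, and the SCC arrays 15.93, 15.79, 16.17, 15.90 and 16.01. The highest tumour, SCC replicate 3, was below the lowest WT lung. B2m fell by 0.54 (SE 0.11), or 1.45-fold, with an adjusted p of 0.00327 in limma, and its other probe fell by 0.49 (adjusted p 0.00544).

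Among the immunoproteasome subunits, Psmb8 and Psmb9 had larger differences than any other member. Psmb8, which replaces Psmb5, read 13.73, 13.93, 13.66, 14.23 and 14.48 on the WT arrays and 13.10, 13.03, 12.88, 12.61 and 12.90 on the SCC arrays. Psmb9, which replaces Psmb6, read 13.30, 13.37, 13.03, 13.72 and 14.46 on the WT arrays and 12.77, 12.13, 12.63, 12.29 and 12.53 on the SCC arrays. Both genes were highest in WT replicate 5, and neither had a tumour within the range of the WT lungs. Psmb8 fell by 1.10 (SE 0.17, adjusted p 0.000595 in limma) and Psmb9 by 1.11 (SE 0.26, adjusted p 0.0056), each 2.15-fold. The dimmer Psmb8 probe fell by 0.67 (adjusted p 0.0229 in limma). Psmb8 and Psmb9 were the members past both the test and a 2-fold difference, which 13.0% of all tested probes reached in the same direction and 9.92% in the other. Without WT replicate 5 the falls were 0.99 and 0.88, both still past the test (adjusted p 0.00109 and 0.00432 in limma), and the count of members at 2-fold was 0.

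Psmb10, which replaces Psmb7, read 15.27, 15.17, 15.05, 15.16 and 15.62 on the WT arrays and 14.87, 14.37, 14.72, 14.47 and 14.84 on the SCC arrays. The groups were separate but close, SCC replicate 1 being the highest tumour and WT replicate 3 the lowest WT lung. Psmb10 fell by 0.60 (SE 0.14), or 1.51-fold, with an adjusted p of 0.00644 in limma.

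The transporter genes overlapped between the groups. Tap1 read 9.61, 9.67, 9.51, 10.03 and 10.86 on the WT arrays and 9.94, 8.93, 10.08, 9.61 and 9.75 on the SCC arrays. WT replicate 5 was far above the other WT lungs and SCC replicate 2 below all other arrays, and the difference was -0.27 (SE 0.29, adjusted p 0.461 in limma). It was -0.04 without WT replicate 5 and -0.09 without SCC replicate 2. Tap2 read 10.74, 10.97, 10.74, 11.18 and 11.33 on the WT arrays and 10.71, 10.28, 10.78, 10.44 and 11.06 on the SCC arrays. Its difference of -0.34 (SE 0.18) did not pass (adjusted p 0.133 in limma), but without SCC replicate 5 it was -0.44 with an adjusted p of 0.0443.

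Tapbp, which holds the empty heavy chain at the transporter, was 14.38 ± 0.22 (SD, n = 5) in WT and 14.30 ± 0.15 (SD, n = 5) in SCC. The groups overlapped over most of their range, and the difference was -0.087 (SE 0.13, adjusted p 0.589 in limma). The dimmer Tapbp probe differed by 0.29 in the opposite direction (adjusted p 0.0646 in limma), so its probes disagree in sign and neither passed. Nlrc5 was the dimmest member and was well above background on 4 of the 5 SCC arrays. It read 5.04, 5.23, 4.75, 5.19 and 6.09 on the WT arrays and 5.28, 4.04, 5.69, 4.86 and 4.86 on the SCC arrays, a difference of -0.31 (SE 0.33, adjusted p 0.447 in limma), which was -0.10 without WT replicate 5 and -0.09 without SCC replicate 2. Its level near the background limits what these arrays can show.

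The size of these differences depended on the scaling. Under 75th percentile scaling the median over all tested probes was 0.03 in place of -0.09. Relative to the median of all probes, H2-K1 was at -0.50 after quantile normalization and -0.30 after 75th percentile scaling, and B2m at -0.45 and -0.36. Under the latter neither passed (adjusted p 0.136 and 0.0932 in limma), and 3 members fell in place of 5, against 7284 of the 30374 tested probes. Psmb8 was at -1.01 and -1.08, Psmb9 at -1.02 and -1.11, and Psmb10 at -0.51 and -0.47 relative to the median, and all 3 passed under both. Slide 1 held only WT arrays and slide 3 only SCC arrays. A fit with slide as a block therefore compares the groups within slide 2 alone, here and below. Its calls, kept or lost, rest on 1 WT array and are no check apart from that slide. WT replicate 5 was the only WT array on slide 2, where it lay beside SCC replicates 1 to 3. Within that slide the differences were -0.67 for H2-K1, -0.69 for B2m, -1.48 for Psmb8, -1.95 for Psmb9 and -0.96 for Psmb10, each resting on 1 WT array. With slide as a block, H2-K1 and B2m did not pass (adjusted p 0.0676 and 0.0779 in limma), and the 3 immunoproteasome subunits did, against 6.44% of all tested probes that fell in that fit.

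The standard subunits were higher in SCC, where their immunoproteasome counterparts were lower. Psmb5, the chymotrypsin-like subunit, was 12.82 ± 0.10 (SD, n = 5) in WT and 13.60 ± 0.096 (SD, n = 5) in SCC, and rose by 0.78 (SE 0.086, adjusted p 7.91e-05 in limma). Psmb7 rose by 0.37 (SE 0.083, adjusted p 0.00446), and Psmb6 by 0.23 (SE 0.084, adjusted p 0.0452). The call for Psmb6 was lost under 8 of the 10 choices of 1 array to leave out (adjusted p up to 0.101 in limma). Neither Psmb7 (adjusted p 0.0949) nor Psmb6 (adjusted p 0.342) passed in limma with slide as a block.

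The balance of subunit RNA was taken on each array as the log2 level of the immunoproteasome subunit minus that of its standard counterpart. Its absolute value has no meaning between probes but its change does. In bulk RNA the genes of a pair need not come from the same cells. Which subunits were built into proteasomes was not measured. Psmb8 minus Psmb5 was 0.82, 1.16, 0.80, 1.57 and 1.59 on the WT arrays and -0.41, -0.66, -0.62, -1.04 and -0.79 on the SCC arrays. The gap between the closest arrays of the groups exceeded the whole range within either group. It fell by 1.89, Psmb9 minus Psmb6 by 1.33, and Psmb10 minus Psmb7 by 0.97. In all 3 pairs every tumour lay below every WT lung. The exact two-sided permutation p was 0.00794 for each, the smallest that 5 against 5 arrays allow, and 0.00794 after adjustment over the 3 pairs. Each immunoproteasome subunit was already lower, and each standard counterpart higher, on every SCC array than on every WT array. The p was therefore fixed by the single genes and adds no support.

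Psmb9, Tap1, Psmb8 and Tap2 follow each other as protein-coding genes on chromosome 17. The window before Psmb9 is printed because 225 of its 250 bases are also the window before Tap1, read on the other strand.
Psmb9 (chr17:34187331-34187580, minus strand): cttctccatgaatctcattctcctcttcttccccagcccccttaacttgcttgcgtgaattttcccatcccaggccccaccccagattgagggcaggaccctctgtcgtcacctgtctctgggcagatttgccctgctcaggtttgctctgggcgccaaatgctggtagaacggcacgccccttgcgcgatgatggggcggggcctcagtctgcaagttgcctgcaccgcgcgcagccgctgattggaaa
Psmb9 and Tap1 each had an SD of 0.55 over the WT lungs, but their difference on an array varied little among them, at 3.69, 3.71, 3.51, 3.69 and 3.60 (SD 0.081). Without WT replicate 5 the SD was 0.29 for Psmb9, 0.23 for Tap1 and 0.091 for their difference. In the tumours that difference was 2.83, 3.20, 2.54, 2.68 and 2.77, which is 0.83 lower in the mean, and the groups did not overlap. Psmb8 minus Tap2 likewise had an SD of 0.089 over the WT lungs, below 0.34 for Psmb8 and 0.26 for Tap2, and was 0.76 lower in the tumours. In tumours the proteasome gene was lower against its transporter neighbour. These pairs were chosen after their values had been seen and carry no test.

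**Figure D2:**
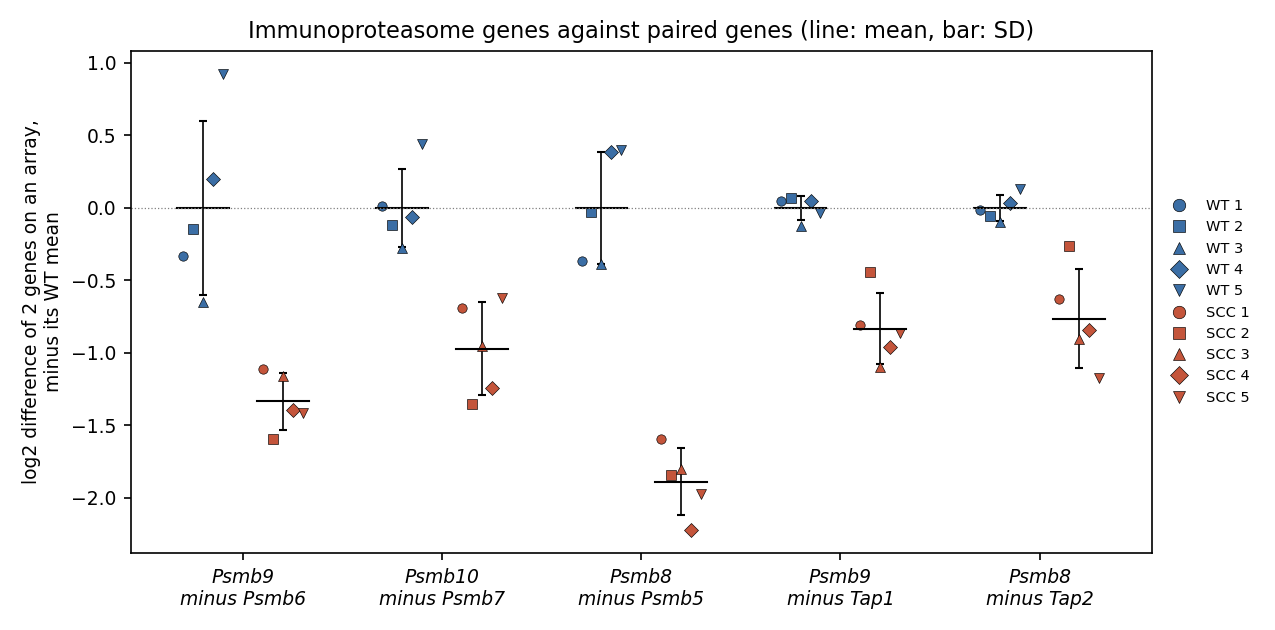
Log2 difference between the genes of a pair on each array, as the distance from its WT mean (vertical axis, log2 units). Points are arrays with the replicate number as the symbol, lines are group means and bars are SD (n = 5 per group). The first 3 pairs set an immunoproteasome subunit against its standard counterpart, the last 2 against the transporter gene beside it, and all SCC arrays lie below all WT arrays in each.

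Spread within the groups ran across members. WT replicate 5 was the highest WT array for 7 of the 9 members, exceeding the mean of the other 4 WT lungs by 1.15 for Tap1, 1.11 for Psmb9 and 1.04 for Nlrc5, but by 0.17 for H2-K1 and 0.19 for B2m. WT replicate 3 was the lowest WT array for 7 members, and SCC replicate 2 the lowest tumour for 6. The 8 interferon-inducible GTPase genes of the Gbp and Irg families among the interferon-induced genes, singled out after their values had been seen, stood out on the same WT array. Igtp, which acts on pathogen vacuoles, was 15.77 on WT replicate 5, 12.44 to 13.49 on the other WT arrays and 12.06 to 13.04 in the tumours. Iigp1 was 3.24 above the mean of the other 4 WT lungs, and the smallest such excess among the 8 genes was 2.08, for Gbp2.

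**Figure D3:**
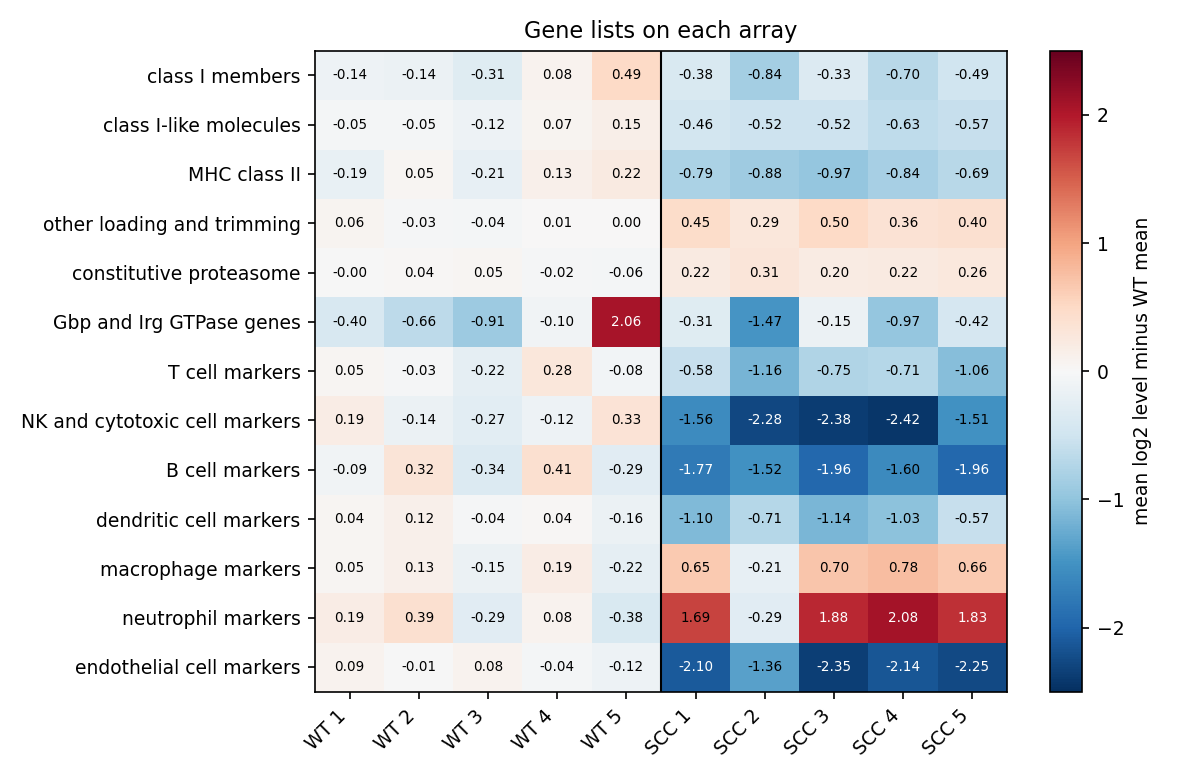
Mean log2 level of gene lists on each of the 10 arrays, as the distance from the list's WT mean (colour and printed value, log2 units; the vertical line separates WT from SCC). WT replicate 5 stands at 2.06 for the Gbp and Irg genes and 0.49 for the class I members, and SCC replicate 2 is the lowest tumour in both rows.

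Other genes of loading and trimming did not fall. Of 8 tested, 4 rose and none fell, with a median of 0.29, against 22.4% of all tested probes that rose and 26.6% that fell. Calreticulin (Calr), a chaperone of the loading complex, rose by 1.10 (SE 0.12, adjusted p 6.17e-05 in limma), the peptidase Ide by 1.10 (SE 0.13), the chaperone Hspa5 by 0.75 and the translocon subunit Sec61a1 by 0.39. Sec61a1 did not pass with slide as a block, at 0.29 (adjusted p 0.317 in limma), where 3 of the 8 rose. Calnexin (Canx) differed by -0.12, the editing factor Tapbpl by -0.23 and the aminopeptidase Erap1 by 0.01, and these did not pass. No probe was paired with Pdia3.

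Across the 20S core, 6 of 14 standard proteasome subunits rose and none fell, against 22.4% and 26.6% of all tested probes. Their median difference was 0.24. The count was 4 without WT replicate 5, 9 without SCC replicate 2, and 1 with slide as a block. Psmb5 was highest and Psma7 next at 0.45 (SE 0.076), while Psma2 and Psma6 lay at -0.03 and -0.05. Among the activators, Psme3 and Psme4, which are not part of the interferon-induced cap, rose by 1.02 and 0.39, and neither passed with slide as a block (adjusted p 0.0813 and 0.169 in limma). The interferon-induced cap subunits Psme1 and Psme2 differed by 0.01 (SE 0.094) and -0.04 (SE 0.12), with adjusted p of 0.921 and 0.818 in limma.

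**Figure D4:**
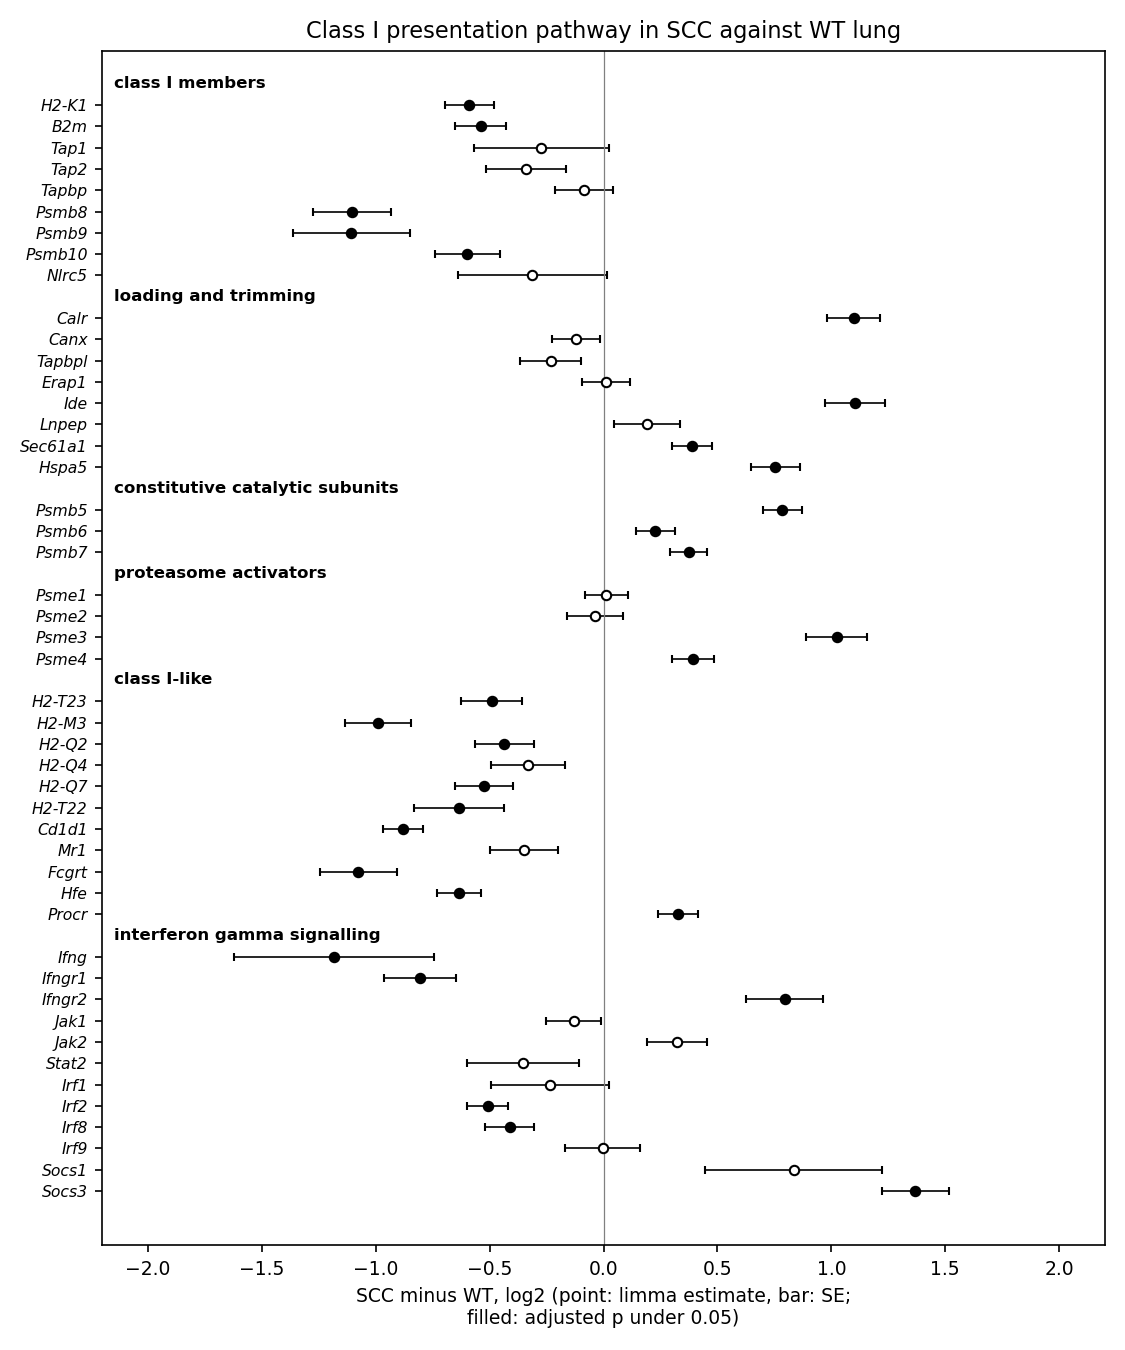
SCC minus WT difference (horizontal axis, log2 units) for the measured class I members and for genes of the pathway around them. Points are limma estimates, bars are SE, and filled points have an adjusted p below 0.05. The class I members and the class I-like genes lie mostly to the left of 0, and the standard catalytic subunits to the right.

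Class I-like molecules, which share the fold of the heavy chain, fell as well. Of 16 tested genes, 9 fell and 1 rose, with a median of -0.51, against 26.6% of all tested probes that fell and 22.4% that rose. Fcgrt, the neonatal Fc receptor, fell by 1.08 (SE 0.17) and the lipid-presenting Cd1d1 by 0.88 (SE 0.089). Hfe, a regulator of iron uptake, fell by 0.64 (SE 0.096), and H2-M3, which presents formylated peptides, by 0.99 (SE 0.15). With slide as a block the calls for Fcgrt (-0.86), Hfe (-0.57) and H2-T23 (-0.72) were lost. H2-T23 (Qa-1), the ligand of CD94-NKG2A, fell by 0.49 (adjusted p 0.0129 in limma), a call lost under 75th percentile scaling, where 5 of the 16 fell, and 2 fell with slide as a block. The endothelial receptor Procr rose by 0.33, a call lost with slide as a block (adjusted p 0.294 in limma) and with the replicate block (adjusted p 0.0505), in both of which none of the 16 rose. Among ligands of NKG2D, an activating receptor of NK cells, Raet1e was not well above background on any WT array and was at least 2.96-fold higher in SCC on the quantile scale (adjusted p 0.0056 in limma), and H60c differed by 0.07. The measured difference of Raet1e was 2.38, but 0.50 with normexp background correction, and the call was lost with slide as a block (adjusted p 0.142 in limma).

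Of 12 tested genes that carry the interferon gamma signal, 4 fell and 2 rose, against 26.6% and 22.4% of all tested probes. Without SCC replicate 2, 3 fell and 4 rose, against 9816 and 8049 of the 30374 tested probes. Ifng itself was dim at 7.32 ± 0.40 (SD, n = 5) in WT and 6.14 ± 1.00 (SD, n = 5) in SCC, and fell by 1.18 (SE 0.44, adjusted p 0.0475 in limma), a call that was lost under 6 of the 10 choices of 1 array to leave out. The ligand-binding receptor chain Ifngr1 fell by 0.81 (SE 0.16) and the signalling chain Ifngr2 rose by 0.80 (SE 0.17). Both calls were lost with slide as a block (adjusted p 0.107 for Ifngr1 and 0.117 for Ifngr2 in limma), and so was that of Ifng (adjusted p 0.324). In that fit 1 gene of the list rose and 2 fell, Irf2 and 1 that had not passed before. Jak1, Jak2 and Irf1 differed by -0.13, 0.32 and -0.23, with adjusted p from 0.0681 to 0.472 in limma. Without SCC replicate 2, Jak2 differed by 0.42 and passed (adjusted p 0.00587 in limma), as it did with normexp background correction and with array quality weights. Irf2, which can repress interferon response elements, fell by 0.51 and Irf8 by 0.41, a call that Irf8 lost with slide as a block (adjusted p 0.132 in limma) and with the replicate block (adjusted p 0.0524). The feedback inhibitor Socs3 rose by 1.37 (SE 0.15), and Socs1 differed by 0.83 without passing. Without SCC replicate 2, Socs1 differed by 1.14 and passed (adjusted p 0.0116 in limma).

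Of the 23 interferon-induced genes tested, 7 rose and 3 fell, against 22.4% and 26.6% of all tested probes. Their median difference was 0.33. That median ranged from 0.04 without SCC replicate 3 to 0.57 without WT replicate 5. Oasl1 and Irf7, which belong to the antiviral response, rose by 4.68 and 3.34, both far lower in SCC replicate 2 than in the other tumours. Ifit2 fell by 1.20 (SE 0.16). Gbp5 differed by -1.09 (SE 0.54, adjusted p 0.118 in limma), by -0.60 without WT replicate 5 and by -0.61 with array quality weights. WT replicate 5, which stood out for the Gbp and Irg genes, is also the only WT array that the slide block sets against tumours. With slide as a block the same list gave 1 higher and 10 lower, Gbp5 passed at -2.90 (adjusted p 0.0224 in limma), and Oasl1 and Irf7 no longer passed. Of 10 RFX and NF-kappaB factors, 2 rose and 2 fell, against 22.4% and 26.6% of all tested probes. Nfkb2 and Relb, the non-canonical NF-kappaB pair, rose by 0.91 and 0.56, and Creb1 fell by 0.60. Rfx5, a partner of Nlrc5 at class I promoters, differed by -0.60 without passing (SE 0.52), and by -0.04 without SCC replicate 5. Of these 10 factors 2 rose and none fell with slide as a block, Creb1 having an adjusted p of 0.0604 in limma.

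MHC class II genes, which present outside proteins to CD4 T cells, fell too. Of 9 tested, 7 fell and none rose, with a median of -0.76, and 4 fell with slide as a block. H2-DMb2 fell by 1.48 (SE 0.26) and H2-Oa by 1.36 (SE 0.13). The class II master regulator Ciita fell by 0.94 (SE 0.25), and the chain H2-Ab1 by 0.54 (SE 0.12). H2-DMb2 was at -0.89 with slide as a block, and its call was lost. Between the lists, 5 of 9 class I members and 7 of 9 class II genes fell, against 26.6% of all tested probes. Cd74, 1 of those 7, fell by 0.32, a call lost under 8 of the 10 choices of 1 array to leave out. It was also lost under 75th percentile scaling (adjusted p 0.338 in limma). The difference between the shares of the lists was not tested.

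Of 9 tested receptors that read class I molecules, 3 fell and 1 rose, against 26.6% and 22.4% of all tested probes. Those that fell were the CD8 chain Cd8a by 2.48 (SE 0.37, adjusted p 0.000475 in limma), the NK receptor chain Klrd1 (CD94) by 2.99 (SE 0.27), and Klrk1 (NKG2D). With slide as a block Cd8a was at -1.74 and did not pass (adjusted p 0.12 in limma), and 2 of the receptors fell and none rose. Klrk1 was well above background on 1 of the 5 SCC arrays, so that the size of its fall depends on the treatment of background. Its difference was -3.37 after quantile normalization and -0.68 with normexp background correction, and passed under both. Pirb, an inhibitory receptor of myeloid cells, rose by 0.62 (adjusted p 0.0397 in limma), a call that was lost under 7 of the 10 choices of 1 array to leave out (adjusted p up to 0.0902) and with slide as a block (adjusted p 0.414). Klra3 differed by 0.15, and Cd8b1 is not analysed here.

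Markers of other cell types changed in both directions. Their counts over all 10 arrays stand against 26.6% of all tested probes that fell and 22.4% that rose. T cell markers fell for 6 of 9 genes, with a log2 summed signal of 12.67 to 13.28 over the WT arrays and 11.60 to 12.46 over the SCC arrays. NK and cytotoxic cell markers fell for 6 of 8, from 11.68 to 12.52 in WT to 9.60 to 10.57 in SCC. B cell markers fell for 5 of 5 and dendritic cell markers for 5 of 7, of which 1 further gene rose. Endothelial markers, from a cell type rich in class I molecules, fell for 8 of 8, with a summed signal of 17.33 to 17.61 in WT and 15.05 to 15.97 in SCC. Macrophage markers rose for 4 and fell for 2 of 10, and neutrophil markers rose for 4 of 7. Without SCC replicate 2 both lists had 6 markers that rose, and without another single array 2 or 3 neutrophil markers rose. Of the T cell markers 6 fell without SCC replicate 2 too, but Cd5 at 0.84 (adjusted p 0.000623 in limma) and Cd4 at 0.32 (adjusted p 0.0247) then rose, as they did with array quality weights and without SCC replicates 2 and 5. SCC replicate 2, the lowest tumour in the mean of the class I members, was the highest in that of the endothelial markers. Alveolar type 2 markers fell for 3 of 5, club and ciliated cell markers for 4 of 6 and cardiac muscle markers for 4 of 5, while alveolar type 1 markers fell for 3 and rose for 1 of 4, and fibroblast markers fell for 3 and rose for 2 of 6. With slide as a block, 3 of the 9 T cell, 3 of the 8 NK and cytotoxic, 3 of the 5 B cell, 1 of the 7 dendritic, 6 of the 8 endothelial and 2 of the 4 alveolar type 1 markers fell. In that fit 1 fibroblast marker rose, and no macrophage, neutrophil, alveolar type 2, club and ciliated or cardiac muscle marker passed. Without 1 array, 2 to 4 club and ciliated cell markers fell. No tested marker of these lists was below background on every array of a group. The part of these cell types in the fall of the class I members was not tested.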

How the data were processed

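RNA from 5 WT lungs and 5 SCC was measured on single-colour Agilent arrays. Per the labels and file headers, the authors read the scans with Agilent Feature Extraction (version 12 in the submitters' processing notes). The deposited scanner files hold a background-subtracted intensity for each spot on a linear scale, with flags. A series matrix of log2 values, deposited beside them, matched the quantile-normalized intensity of the same arrays. It was used to pick probes and as an alternative. Control spots and outliers were left out, spots of a probe were averaged as log2 intensity, and the 41174 probes were quantile-normalized. A probe was tested if it was well above background (on at least a share of 0.5 of its spots) on at least 4 of the 5 arrays of a group, which left 30374. SCC and WT were compared with limma 3.58.1 in R 4.3.3 (lmFit, eBayes, all 10 arrays, no covariates, two-sided) with Benjamini-Hochberg adjustment, and every adjusted p is limma's unless another test is named. The number of arrays limits the precision.

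Accessions were paired with symbols through RefSeq (GRCm38.p6): 28223 probes (68.5%) received a symbol. No probe is paired with the floxed gene Lkb1, so its loss was not checked. The members and gene lists were chosen with earlier results of these data known. Named besides the members were a fixed set of pathway genes. From each other pathway list, up to 2 tested genes with the largest positive and 2 with the largest negative difference were added. Hspa5, Sec61a1, Irf2, Irf8, Cd1d1, Hfe, H2-Ab1, Cd74, Ciita and the Gbp and Irg genes were chosen after their values were seen. 1 gene first chosen for the interferon gamma list was taken out of it and is not reported here, which can change a count over that list by at most 1. The normexp alternative used the median spot signal. The limma script was tested on simulated data.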

Additional observations from a re-analysis of the deposited data

Results flagged for a closer look

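In 192 groups of 5 arrays (each member, named gene, list mean and subunit pair in each group), 24 had an end array whose gap to the nearest other, divided by the group's range, exceeded 0.71. Of the 24, 4 were in the Gbp and Irg genes, which were singled out for WT replicate 5, and without those 8 genes the count was 20 of 176. Chance gives about 1 in 20, but the groups share arrays, so these counts are no test. None of the 24 was a class I member or a subunit pair. No explanation was tested.

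WT replicate 5 was high for Psme1 (gap 0.746), Irf1 (0.727), Ciita (0.756), Gbp4 (0.721), Gbp6 (0.84) and Irgm1 (0.756). Irf1 was 15.81 there against 14.70 to 15.00 on the other WT arrays.

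SCC replicate 2 was low for Psme2 (gap 0.909), Psme3 (0.778), Irf1 (0.777), Raet1e (0.925), Socs3 (0.92), Oasl1 (0.859), Irf7 (0.776) and Gbp3 (0.763), and high for Psma2 (0.713). It was also low for the mean level of squamous epithelium (0.896), macrophage (0.873) and neutrophil (0.837) markers and high for endothelial markers (0.745). Its neutrophil marker mean was 9.86 against 11.84 to 12.23 in the other tumours.

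SCC replicate 5 was low for Rfx5 (gap 0.876), at 4.17 against 6.82 to 7.20, and for the mean of the RFX and NF-kappaB factors (0.857). WT replicate 4 was high for that mean (0.848) and low for the mean of the class I receptors (0.794). WT replicate 3 was low for Jak2 (0.73).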

How the results depend on the processing

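Psmb8, Psmb9 and Psmb10 stayed past an adjusted p of 0.05 and lower in SCC under every alternative that gave a test, with differences of -1.48 to -0.99, -1.95 to -0.84 and -0.96 to -0.44. Among these alternatives, the fit with slide as a block has WT replicate 5 as the only WT array in its comparison. As the mean of its probes, which has no test, Psmb8 was -0.89 and H2-K1 -0.37. Of the members, 3 fell under 75th percentile scaling and 3 with slide as a block, in place of 5, and 5 to 6 fell with 1 array left out. The count at 2-fold was 1 with array quality weights, and 0 to 2 with 1 array left out, 0 being without WT replicate 5. Probes called over the array numbered 6954, against 3969 with normexp background correction, 2989 with slide as a block, 14878 on adjusted p alone (3814 with slide as a block) and 6385 to 8135 with 1 array left out. Same-numbered WT and SCC arrays did not deviate together (correlations -0.10 to 0.0087). This shows no shared deviation and cannot exclude that the numbers pair the mice. With the replicate block 5 members still fell, and the subunit differences of -1.33 for Psmb9 minus Psmb6, -0.97 for Psmb10 minus Psmb7 and -1.89 for Psmb8 minus Psmb5 had an exact p of 0.0625, the smallest that 5 pairs allow. That p was again fixed by the single genes. With 1 array left out the subunit differences ranged from -1.50 to -1.10, -1.06 to -0.86 and -1.99 to -1.79.

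Of 38 named pathway genes past the test, 22 no longer passed with slide as a block and 0 to 6 under each other alternative. Some differences that had not passed changed sign. Under 75th percentile scaling Tapbp was 0.025, Nlrc5 0.060, Psme2 0.13, Erap1 -0.0034, Psma6 0.025 and Psma2 0.14. With array quality weights Tap1 was 0.047, Tapbp 0.0098, Nlrc5 0.061, Psme1 -0.0018, Psme2 0.074 and Irf1 0.030. With slide as a block Psme1 was -0.17, Canx 0.12, Erap1 -0.12, Jak1 0.089, Psma6 0.063 and Psma2 0.056. Without SCC replicates 2 and 5 Nlrc5 was 0.019, Psme1 -0.051 and Psme2 0.045. Tapbp was 0.10 as the mean of its probes, and Psma2 0.00046 with normexp. With 1 array left out Psme1 ranged from -0.019 to 0.067, Psme2 from -0.070 to 0.051, Erap1 from -0.035 to 0.060, H60c from -0.24 to 0.41 and Klra3 from -0.17 to 0.51. None of these differences passed in limma under these settings. The cause was not tested. The alternatives for genes other than members were chosen after the data were seen. Genes near background, such as Nlrc5, are limited by signal.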
